A study of Mus musculus with 9 samples.

Results

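Cytochrome c oxidase, complex IV of the mitochondrial respiratory chain, contains several nuclear-encoded subunits for which the mouse genome holds more than 1 gene. The 9 genes described here are Cox4i1 and Cox4i2, Cox6a1 and Cox6a2, Cox7a2 and Cox7a1, Ndufa4 and Ndufa4l2, which form 4 pairs, and Cox6b1, whose partner Cox6b2 is given beside it. They were found by gene symbol and are 9 of the 40548 genes listed for day 0 and day 7 and of the 40526 listed for day 4. They were chosen with their day 0 to day 7 differences already known, so their values are given as a description, without a test.

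The libraries came from primary calvarial cells, bone-forming progenitors freed from the skull of newborn C57BL/6 mice (C57BL/6J in the methods), at postnatal day 2 to 3 according to the labels. RNA-seq was done on 3 biological replicates at each of 3 stages, namely undifferentiated cells at day 0 and cells kept for 4 or 7 days in mineralization medium, which contained ascorbic acid and β-glycerol phosphate. No drug or gene was varied between the stages. The methods name both wild type mice and a Col1a1-driven GFP reporter line, pups of both sexes and a wider range of newborn ages, and do not say which of these gave which library. The cultures are mixed primary cells and not a clonal line, and at collection the labels give collagenase before trypsin for mineralized cells and trypsin alone for non-mineralized ones. The methods give collagenase for day 4 and day 7 cells, so stage and dissociation cannot be told apart.

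Whole reads could be recovered from the deposited CPM (reads on a gene scaled to the library total) in all 9 libraries. A day 0 library held 7741204 to 14013219 reads on genes, a day 4 library 32820610 to 37306090 and a day 7 library 10675858 to 15622755. Levels are given as RPKM, which also divides by the length of the gene model. Day 4 lies in a table of its own and was sequenced more deeply, so it entered no test and was compared with the other stages by overlap of the libraries and by folds given as a description. The label osteoblast fitted the markers at the differentiated stages: for 8 of 8 osteoblast markers the lowest day 7 library exceeded the highest day 0 library, and their summed level was 1801 to 2515 RPKM at day 0, 5664 to 6492 RPKM at day 4 and 8042 to 10135 RPKM at day 7. Their defining late gene Bglap (osteocalcin) was at only 0.550 ± 0.178 RPKM (SD, n = 3) at day 0. Col1a1 led the marker sum at each stage, with a mean of 2158 RPKM at day 0 and 5475 RPKM at day 7, so the day 0 sum is mostly this gene. Of the 12712 genes with a mean of at least 1 CPM over day 0 and day 7, 16.9% were higher in every day 7 library.

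Complex IV passes electrons from cytochrome c to oxygen and pumps protons. Its catalytic core is made of mitochondrially encoded proteins, and the nuclear subunits around the core stabilize it and adjust its activity. Some nuclear subunits have a common form found in most tissues and a second form restricted to certain tissues or conditions: Cox4i2 is known from lung and oxygen-sensing cells, Cox6a2 and Cox7a1 from heart and skeletal muscle, Cox6b2 from testis. Ndufa4 was first assigned to complex I and is now regarded as a subunit of complex IV, and its relative Ndufa4l2 is a known target of hypoxia-inducible factor 1 (HIF-1).

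Levels of protein and sequence reads were not analysed here, and the reference tables gave a RefSeq promoter window (250 bases before to 50 after the gene start, GRCm38.p6) for 5 of the 9 genes. No window was at hand for Cox4i1, Cox4i2, Cox6a2 and Ndufa4l2. Stretches of 200 bases that end 51 bases before the gene start are shown for the common-form genes with higher day 7 levels, Cox6a1 (chr5:115349009-115349208, minus strand), Cox6b1 (chr7:30626165-30626364, minus strand) and Cox7a2 (chr9:79759904-79760103, minus strand), and for Ndufa4 (chr6:11907501-11907700, minus strand), whose day 7 levels were lower. They read 5′ to 3′ along the gene, with capitals marking motif matches. The gene start meant here is that of RefSeq, from which motif distances are counted. It differs from the GENCODE start in the gene positions given below.
Cox6a1: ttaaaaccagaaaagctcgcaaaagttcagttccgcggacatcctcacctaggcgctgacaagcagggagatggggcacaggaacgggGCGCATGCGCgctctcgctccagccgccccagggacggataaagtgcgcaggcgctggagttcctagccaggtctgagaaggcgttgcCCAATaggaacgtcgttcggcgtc
Cox6b1: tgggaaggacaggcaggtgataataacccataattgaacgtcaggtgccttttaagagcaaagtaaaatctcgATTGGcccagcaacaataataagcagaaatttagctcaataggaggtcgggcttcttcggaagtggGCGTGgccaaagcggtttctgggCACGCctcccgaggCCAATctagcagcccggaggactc
Cox7a2: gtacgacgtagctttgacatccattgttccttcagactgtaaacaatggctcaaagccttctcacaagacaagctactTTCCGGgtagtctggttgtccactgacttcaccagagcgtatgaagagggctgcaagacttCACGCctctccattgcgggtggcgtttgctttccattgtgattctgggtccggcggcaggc
Ndufa4: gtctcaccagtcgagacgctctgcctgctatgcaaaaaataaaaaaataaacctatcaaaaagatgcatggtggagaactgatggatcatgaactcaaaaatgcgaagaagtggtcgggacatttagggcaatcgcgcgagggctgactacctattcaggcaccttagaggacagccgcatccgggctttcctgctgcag
Motifs were searched on both strands of the 300-base window: CCGGAA, the core of GABPA (NRF2) sites; GCGCATGCGC, the NRF1 palindrome; ACGTG and GCGTG, cores of hypoxia response elements; CCAAT; and TATAAA. Of 32851 windows of this length, 14.9% held CCGGAA, 0.971% the NRF1 palindrome, 19.6% ACGTG, 32.4% GCGTG, 37.4% CCAAT and 13.6% TATAAA. The Cox6a1 window held the NRF1 palindrome beginning 162 bases before the start, CCAAT 74 bases before it and, outside the printed stretch, CCGGAA on the other strand. Cox6b1 held GCGTG once on each strand and CCAAT on both, with CCGGAA on the other strand nearer to the start. In Cox7a2, CCGGAA and GCGTG were both found on the other strand, 172 and 111 bases before the start. The Ndufa4 stretch held none of the motifs, and its window had a single GCGTG after the gene start. Cox7a1, whose stretch is not printed, held ACGTG and GCGTG near its start and CCAAT on the other strand. The Cox6a1 stretch overlaps an exon of the noncoding gene Gm42903. These matches describe letters only.

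In the subunit 4 pair the alternative form was nearly undetected at day 0 and remained the minor form later. Cox4i1 (chr8:120668222-120674207, GRCm38) encodes the common form of this structural subunit, through which ATP inhibits the enzyme. It was at 221, 206 and 168 RPKM in the day 0 libraries, 191, 199 and 191 RPKM at day 4 and 211, 203 and 217 RPKM at day 7. The day 7 libraries lay within the span of the day 0 libraries, and the day 7 mean was 1.06 times the day 0 mean. Cox4i2 (chr2:152754173-152765037) had 5, 3 and 3 reads at day 0, which correspond to 0.453, 0.318 and 0.492 RPKM. It reached 24.6, 57.5 and 39.4 RPKM at day 4 and 78.4, 78.6 and 53.3 RPKM at day 7. Every later library was above every day 0 library, whereas day 4 and day 7 overlapped. Because day 0 rested on 11 reads in all, the fold is wide: pooled over libraries it was 166 at day 7 (95% exact Poisson interval 92.5 to 333) and 99.5 at day 4 (55.5 to 199.5), intervals that cover counting error only.

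Within each library, Cox4i2 made up 0.217% ± 0.069 (SD, n = 3) of the summed RPKM of the pair at day 0, 17.0% ± 5.53 at day 4 and 24.9% ± 4.55 at day 7. The ratio of Cox4i2 to Cox4i1 in single libraries ran from 0.00154 to 0.00292 at day 0, from 0.128 to 0.289 at day 4 and from 0.245 to 0.388 at day 7. By RPKM the common form therefore stayed the higher in all 9 libraries, by 2.58 to 4.08 times at day 7. This factor and the shares depend on the lengths used, 1550 bases for Cox4i1 and 788 bases for Cox4i2. On the geometric mean the ratio was 156 times its day 0 value at day 7, a value that also rests on the 11 day 0 reads. With Cox4i1 nearly level, the pair's summed level was 199 ± 27.1 RPKM at day 0, 234 ± 20.3 RPKM at day 4 and 281 ± 9.49 RPKM at day 7. A span of 9.94% of the exonic bases of Cox4i1 is shared with Emc8 on the other strand, and no strand setting of the counting is stated, so a part of its reads could be those of Emc8.

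**Figure D1:**
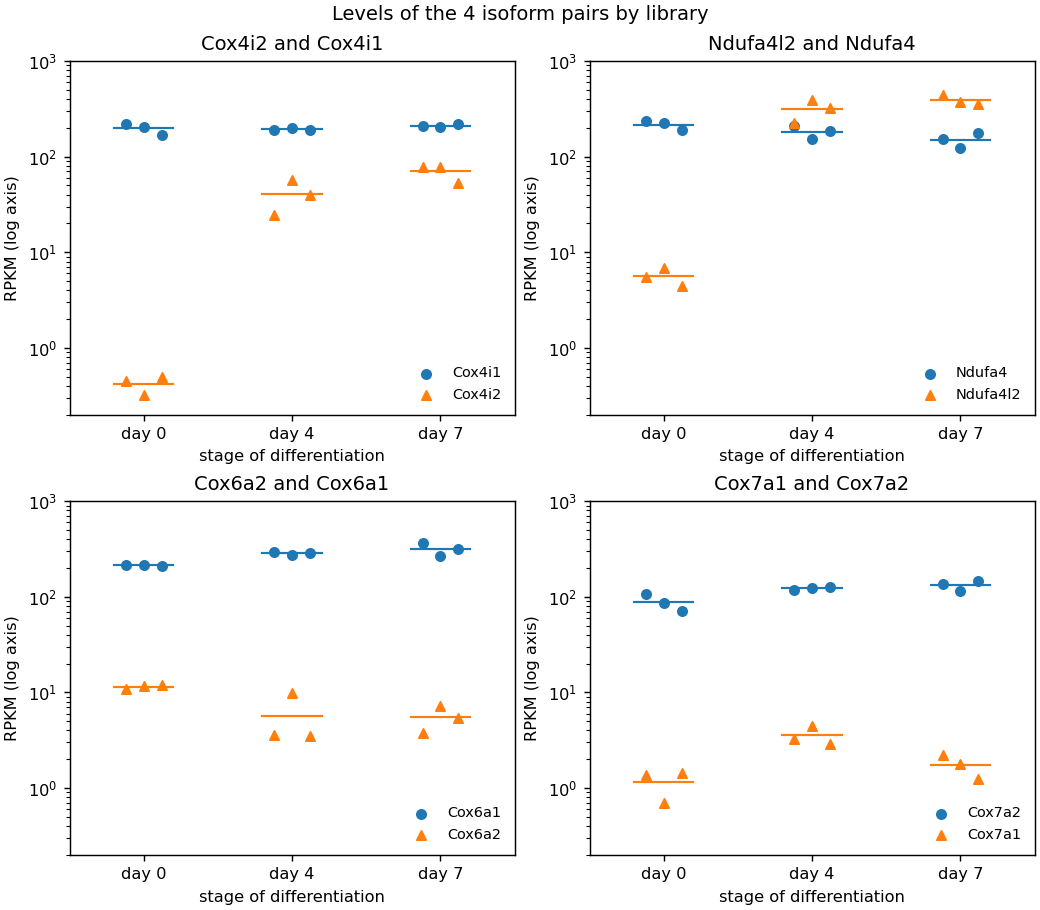
RPKM (log axis) of the common form (blue circles) and the alternative form (orange triangles) of each pair in the 3 libraries of day 0, day 4 and day 7, with a line at the mean of each stage. Ndufa4l2 lies below Ndufa4 at day 0 and above it at days 4 and 7, whereas Cox4i2 comes nearer to Cox4i1 and stays below it, and Cox6a2 and Cox7a1 stay far below their partners.

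The Ndufa4 pair was the one in which the order of the forms turned. Ndufa4 (chr6:11900292-11907497) was at 233, 222 and 191 RPKM at day 0, at 208, 152 and 187 RPKM at day 4 and at 153, 123 and 178 RPKM at day 7. Its day 7 libraries were all below its day 0 libraries, with a mean 1.43 times lower, and its day 4 libraries overlapped both. Ndufa4l2 (chr10:127514967-127517154) was at 5.57, 6.88 and 4.44 RPKM at day 0, at 225, 394 and 319 RPKM at day 4 and at 438, 377 and 354 RPKM at day 7. Its mean was 55.6 times the day 0 mean at day 4 and 69.2 times at day 7, and the day 4 and day 7 libraries overlapped. Unlike Cox4i2, it had 33 to 79 reads in each day 0 library.

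Ndufa4l2 supplied 2.53% ± 0.405 (SD, n = 3) of the pair at day 0, 62.4% ± 10.1 at day 4 and 72.0% ± 4.79 at day 7. Its ratio to Ndufa4 was 0.0239, 0.0309 and 0.0232 in the day 0 libraries, 1.08, 2.59 and 1.71 at day 4 and 2.86, 3.07 and 1.99 at day 7. Thus the ratio was below 1 in 3 of 3 day 0 libraries and above 1 in 6 of 6 later ones, by the least in day 4 replicate 1. The geometric mean ratio at day 7 was 101 times that at day 0. Summed over the pair, the level was 221 ± 22.8 RPKM at day 0, 495 ± 57.2 RPKM at day 4 and 541 ± 46.6 RPKM at day 7. A comparison of levels between the genes depends on the lengths used, 492 bases for Ndufa4 and 960 bases for Ndufa4l2 in the deposited values, and GENCODE M21 counts 1381 exonic bases for Ndufa4. The change of the ratio between stages does not depend on these lengths. Shmt2 on the other strand shares 2.92% of the exonic bases of Ndufa4l2. A further relative, AA467197 (Nmes1), which has been described to take the place of Ndufa4 in inflamed cells, had at most 25 reads in any library and at most 0.505% of the sum with Ndufa4.

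Subunit 6A moved the other way, away from its muscle form. Cox6a1 (chr5:115345642-115348981), the common form of this subunit near the dimer interface, was at 214, 217 and 209 RPKM at day 0, 291, 272 and 290 RPKM at day 4 and 366, 267 and 318 RPKM at day 7. Each later library was above each day 0 library, and the day 7 mean was 1.49 times the day 0 mean. Cox6a2 (chr7:128205435-128206387) was at 10.8, 11.6 and 12.0 RPKM at day 0, 3.61, 9.93 and 3.46 RPKM at day 4 and 3.78, 7.26 and 5.35 RPKM at day 7, all later libraries being below all day 0 libraries. Its mean was 2.10 times lower at day 7 than at day 0. Day 4 replicate 2 and day 7 replicate 2 were the highest of their stages and stood nearest to the day 0 level. Cox6a2 held 5.10% ± 0.307 (SD, n = 3) of the pair at day 0, 1.97% ± 1.34 at day 4 and 1.77% ± 0.819 at day 7. The geometric mean ratio was 3.20 times lower at day 7 than at day 0. The gene Itgad on the other strand covers 10.3% of the exonic bases of Cox6a2, and 9.16% of the 50-base stretches of Cox6a1 recur in another gene, a pseudogene, so a part of either level is uncertain.

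In the subunit 7A pair the muscle form was highest at day 4. Cox7a2 (chr9:79755361-79759878), the common form, was at 106, 86.6 and 70.6 RPKM at day 0, 117, 124 and 127 RPKM at day 4 and 136, 114 and 146 RPKM at day 7. Both later stages lay above day 0 in every library, and the day 7 mean was 1.51 times the day 0 mean. Cox7a1 (chr7:30184144-30186078), the heart and skeletal muscle form, had 7, 3 and 4 reads at day 0, 39, 61 and 38 reads in the deeper day 4 libraries and 11, 7 and 7 reads at day 7. In RPKM these were 1.37, 0.689 and 1.42, then 3.26, 4.49 and 2.89, then 2.21, 1.80 and 1.23. All day 4 libraries were above all libraries of day 0 and of day 7, and day 0 and day 7 overlapped. Pooled over libraries, the level at day 4 was 3.13 times that at day 0 (95% exact Poisson interval 1.80 to 5.88). The level at day 7 was 1.51 times that at day 0 (0.754 to 3.14), an interval that includes equal levels. Both intervals cover counting error only, leave out the spread between replicates and are no test. Its share of the pair was 1.35% ± 0.594 (SD, n = 3) at day 0, 2.81% ± 0.633 at day 4 and 1.33% ± 0.429 at day 7. The log2 ratio at day 7 was 0.02 above that at day 0, and its sign turned when single libraries were left out.

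Cox6b1 (chr7:30616861-30626151), the common form of a subunit that faces the intermembrane space, was at 239, 206 and 181 RPKM at day 0, 259, 244 and 267 RPKM at day 4 and 288, 270 and 307 RPKM at day 7. By RPKM it was the only gene of the 9 besides Cox4i1 with every day 7 library above every day 4 library. Relative to the median of other subunits, as given below, both genes had the reverse order. The day 7 mean of Cox6b1 was 1.38 times its day 0 mean. Its partner Cox6b2 was at 3.18 ± 0.272 RPKM (SD, n = 3) at day 0, 3.00 ± 0.611 RPKM at day 4 and 2.91 ± 0.283 RPKM at day 7. The share of Cox6b2 in their sum was 1.52% ± 0.271 at day 0, 1.15% ± 0.183 at day 4 and 1.00% ± 0.119 at day 7.

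**Figure D2:**
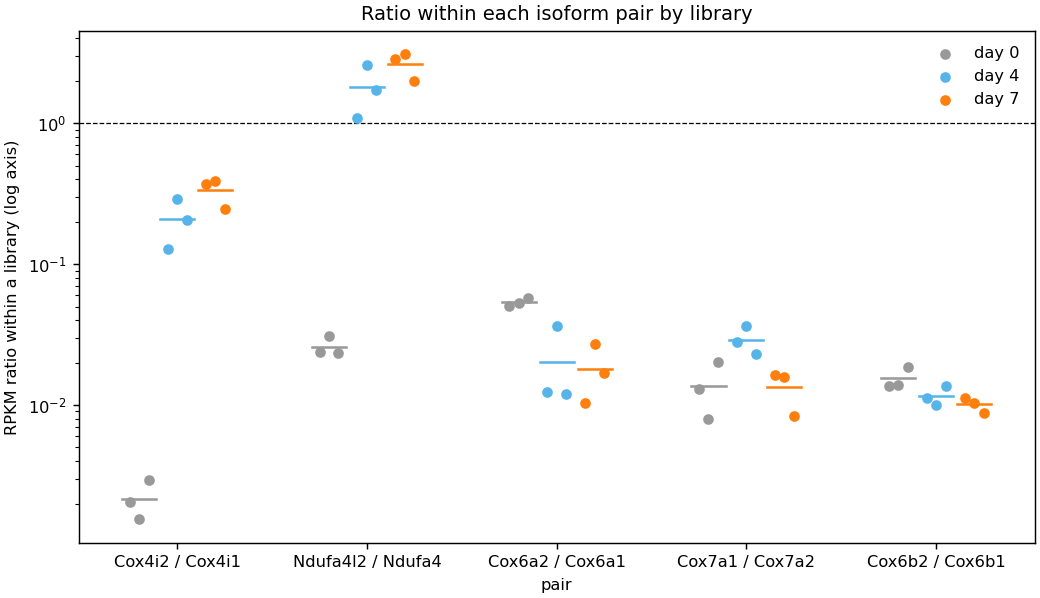
RPKM of the alternative form divided by that of the common form within each library (log axis), for the 4 pairs and for Cox6b2 over Cox6b1. Points are the 3 libraries of each stage, short lines their mean, and the dashed line marks a ratio of 1, which was passed at days 4 and 7 by Ndufa4l2 over Ndufa4 and by no other pair.

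Counted over the 9 genes, every day 7 library was above every day 0 library for 5 (Cox4i2, Cox6a1, Cox6b1, Cox7a2 and Ndufa4l2) and below for 2 (Cox6a2 and Ndufa4), while 2 overlapped (Cox4i1 and Cox7a1). A mean of at least 1 CPM across these 6 libraries was reached by 12712 genes, of which 42.3% did not overlap, 16.9% higher and 25.4% lower at day 7. The genes were picked on this contrast, so nothing is read from their count. Of the 9, Cox7a1 fell under that filter, and Cox4i2 passed it through its day 7 libraries. Between day 0 and day 4, 6 genes were higher at day 4, 1 was lower (Cox6a2) and 2 overlapped (Cox4i1 and Ndufa4), beside a background of 43.4% of 12800 genes, 21.4% higher and 22.0% lower. From day 4 to day 7, 2 were higher (Cox4i1 and Cox6b1, though lower relative to the median of other subunits), 1 was lower (Cox7a1) and 6 overlapped. The background was 38.7% of 12782 genes, 13.7% higher and 25.0% lower. These comparisons share their day 0, day 4 or day 7 libraries.

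The order of the 9 levels, set per length, differed between the stages. At day 0 Ndufa4 led with a mean of 216 RPKM, and its libraries overlapped with those of Cox6a1, which overlapped with Cox6b1, which overlapped with Cox4i1. Below these, Cox7a2, Cox6a2, Ndufa4l2, Cox7a1 and Cox4i2 followed in steps without overlap. At day 7 Ndufa4l2 led with a mean of 390 RPKM, overlapping with Cox6a1, and Cox6a1 with Cox6b1. Then came Cox4i1, then Ndufa4, which overlapped with Cox7a2, and then Cox4i2, Cox6a2 and Cox7a1, each apart from the one before. Ndufa4l2 went from place 7 to place 1, Ndufa4 from place 1 to place 5, and Cox4i2 from place 9 to place 7. The means at day 4 had the same order as at day 7.

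A ratio to other subunits of the same library does not depend on how the library is scaled. The reference was the median RPKM of the 6 nuclear subunits Cox5a, Cox5b, Cox6c, Cox7b, Cox7c and Cox8a, listed as lacking a broadly expressed second form, and it was 77.4 to 86.8 RPKM at day 0 and 88.2 to 103 RPKM at day 7. With 6 genes the median is the mean of the middle ones, which were Cox5a and Cox7b in every library. On this scale Cox4i2 went from 0.501% of the reference at day 0 to 48.3% at day 4 and 72.2% at day 7, a difference of 7.17 in log2 between day 0 and day 7. Ndufa4l2 went from 6.70% to 386% and 406%, a difference of 5.92 in log2. Ndufa4 went from 260% to 229% and 156%, and every day 7 library was below every day 0 and every day 4 library.

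Among the other genes, Cox6a1 was 0.35, Cox7a2 0.39 and Cox6b1 0.26 higher in log2 at day 7 than at day 0 relative to the reference, without overlap. For Cox6a2 the difference was −1.33 in log2, also without overlap. For Cox4i1 the difference was −0.12 and for Cox7a1 0.41, and both overlapped. From day 4 to day 7 the difference on this scale was −0.15 for Cox4i1, −0.11 for Cox6b1 and −0.17 for Cox7a2, each without overlap. The RPKM of Cox4i1 and Cox6b1 had been higher at day 7 than at day 4. Their day 7 mean over their day 4 mean was 1.09 for Cox4i1 and 1.12 for Cox6b1. For the reference subunits it was 1.17 to 1.30 for Cox5a, Cox5b, Cox7b, Cox7c and Cox8a, and 0.915 for Cox6c. The higher Cox6a1, Cox6b1 and Cox7a2 levels were thus also seen against this median, at less than 1.5-fold each, but their size depends on the subunit taken. The day 7 mean over the day 0 mean was 1.487 for Cox6a1, 1.382 for Cox6b1 and 1.505 for Cox7a2. It was 1.449 for Cox7b, 1.378 for Cox7c, 1.227 for Cox8a, 1.132 for Cox6c, 1.103 for Cox5b and 0.940 for Cox5a. By these means little or no difference was left against Cox7b, and little for Cox6b1 and the others against Cox7c. The mitochondrially encoded mt-Co1, whose day 7 mean was 1.92 times its day 0 mean, is no part of this reference.

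**Figure D3:**
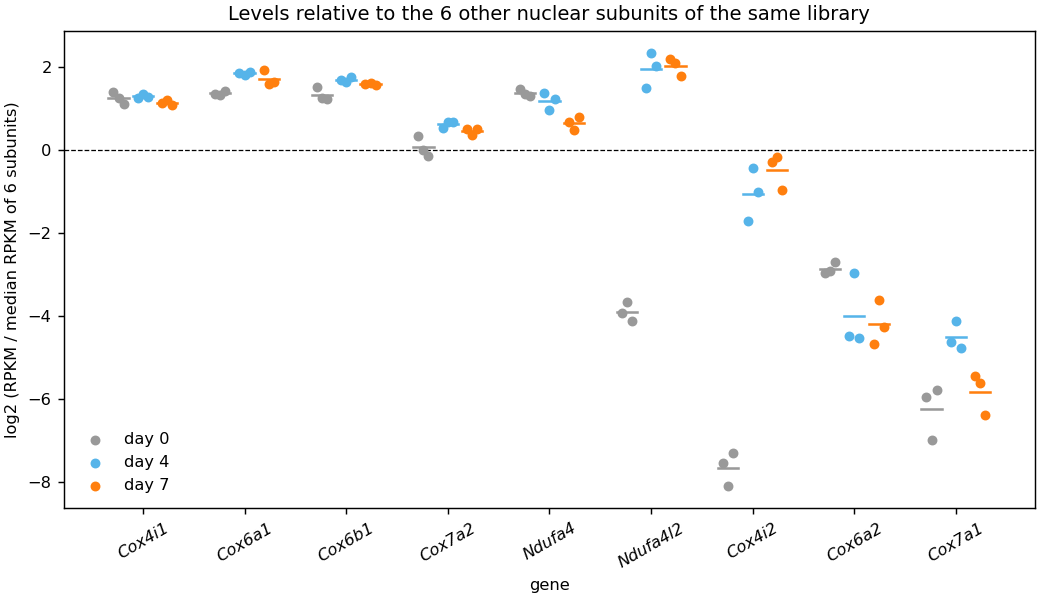
Level of each of the 9 genes relative to the median of 6 other nuclear subunits of the same library, in log2, with 0 (dashed) at equal RPKM. Points are the 3 libraries of each stage and short lines their mean. Cox4i2 and Ndufa4l2 lie above their day 0 points by about 6 or more at day 7, Cox6a2 and Ndufa4 lie below, and Cox4i1 overlaps.

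Other genes of complex IV were taken from lists by role and tested between day 7 and day 0 in the fit across all genes (limma, Benjamini-Hochberg adjusted p under 0.05), which called 31.2% of the 12712 genes, 12.6% higher and 18.6% lower, with a median log2 difference of −0.11. Of the 6 subunits used as the reference, 1 was higher and 0 were lower on this scale, with a median of 0.24. Other scalings called 5 higher, as given below. Cox7b, a small subunit needed for assembly, was at 77.7, 73.8 and 60.2 RPKM at day 0 and 97.6, 97.9 and 111 RPKM at day 7, a difference of 0.54 ± 0.15 (SE) in log2 (limma, adjusted p = 0.00574). Cox7c differed by 0.47 (adjusted p = 0.0635), Cox8a by 0.30 (adjusted p = 0.139), Cox6c by 0.19, Cox5b by 0.14 and Cox5a by −0.09. The last sign turned under each other scaling. The count depends on the scaling: median-of-ratios scaling, which moved the median of all genes by about 0.1 to −0.01, called 5 of the 6 higher, as did edgeR, DESeq2 and quality-weighted limma, whereas leaving out day 7 replicate 3 gave 0 and leaving out day 0 replicate 1 gave 2. Between 8.37% and 22.1% of the 50-base stretches of Cox5a, Cox5b, Cox6c and Cox7c recur in other genes, which leaves their levels uncertain.

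Of the core subunits, mt-Co1 was at 999 ± 127 RPKM (SD, n = 3) at day 0, 2614 ± 225 RPKM at day 4 and 1917 ± 171 RPKM at day 7. At day 7 it was 0.94 ± 0.18 (SE) higher in log2 than at day 0 (limma, adjusted p = 3.63e-05). As 51.1% of its 50-base stretches also occur in pseudogenes and only uniquely aligned reads were counted, this level is incomplete, and mt-Co2 and mt-Co3, whose stretches recur at 100% and 99.9%, are listed at 0. Among 6 further relatives, Cox7b2 and Cox8c are listed at 0 in all 9 libraries. Cox7a2l, a factor of supercomplexes, was at 107 ± 13.6 RPKM at day 0 and 103 ± 6.08 RPKM at day 7, and neither it nor Cox6b2 passed the test, also at an unadjusted p under 0.05. A pseudogene shares 13.8% of its 50-base stretches. Relative to Cox7a2 the level of Cox7a2l went from 1.23 ± 0.128 at day 0 to 0.662 ± 0.0594 at day 4 and 0.788 ± 0.112 at day 7, both later stages lying below day 0 in every library. Cox8b, the muscle and brown fat form of subunit 8, had 0 reads in the day 0 libraries and 9, 24 and 18 reads at day 7. Against a floor of 3 reads in each day 0 library it was at least 4.76-fold higher at day 7, and it made up 1.11% ± 0.742 of its sum with Cox8a.

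Of 25 assembly factors, 22 were tested, 3 were higher and 2 lower at day 7, with a median of 0.04. Pet100, needed to build the holoenzyme, rose by 0.70 ± 0.18 (SE) in log2 (limma, adjusted p = 0.00203), Cox16, which helps to mature the Cox2 protein, by 0.57 ± 0.19 (adjusted p = 0.0211), and Higd2a by 0.43 ± 0.17 (adjusted p = 0.0430). Lrpprc, which stabilizes mitochondrial mRNAs, fell by 0.65 ± 0.16 (adjusted p = 0.00125) and Coa5 fell by 0.40 ± 0.16 (adjusted p = 0.0444). Median-of-ratios scaling and edgeR each called 8 higher. Of the 6 fits that left out a library, Higd2a and Coa5 were called in the 1 without day 0 replicate 3 alone, and Cox16 lost its call without day 7 replicate 1 or 3. Sco2 and Pet117 are listed at 0.

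**Figure D4:**
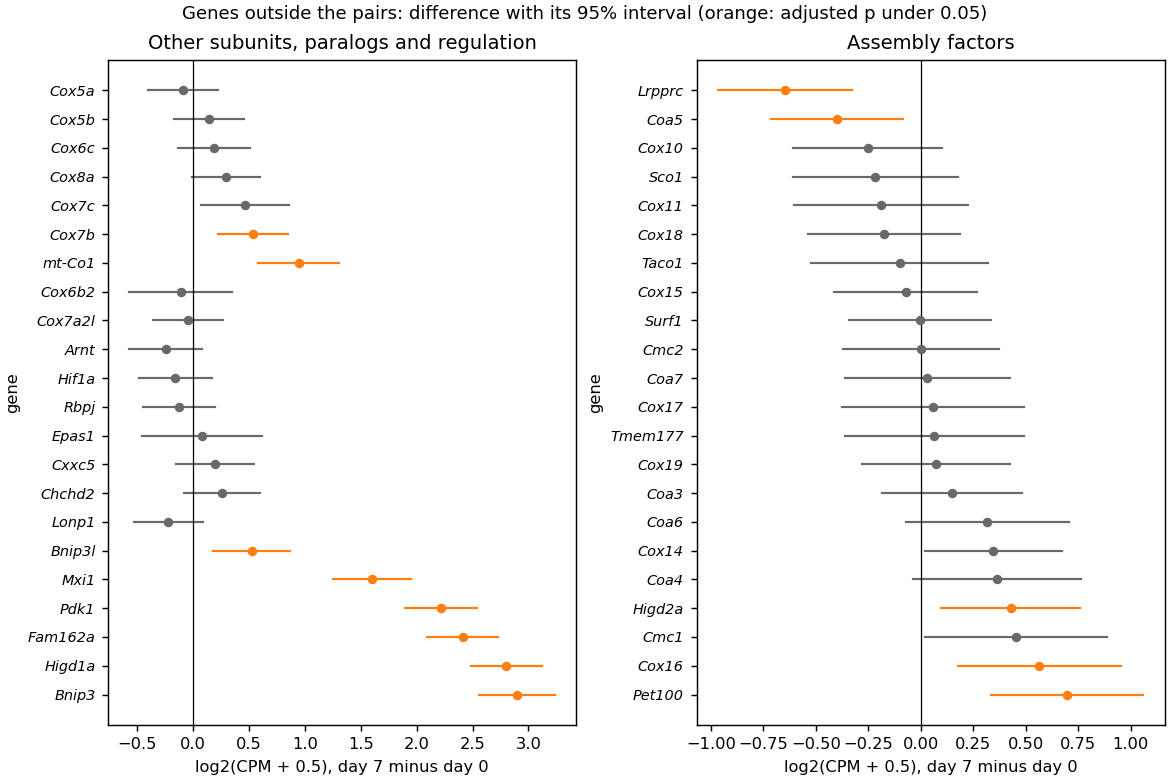
Log2 difference, day 7 minus day 0, of log2(CPM + 0.5) for tested genes outside the pairs, with 95% intervals from limma. Orange marks an adjusted p under 0.05. The left panel holds, from the top, nuclear subunits, mt-Co1, further relatives, regulators of Cox4i2 and hypoxia-induced mitochondrial genes, of which 6 are orange, and the right panel holds the assembly factors, with 3 orange points above 0 and 2 below.

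Cox4i2 and Ndufa4l2 are known as oxygen-regulated genes, so the transcription factors named for Cox4i2 and other HIF-1 targets with roles in mitochondria were set beside them. The 6 regulators were Hif1a, Epas1 and Arnt of the HIF family and Chchd2, Cxxc5 and Rbpj, which act on an oxygen-responsive element of the Cox4i2 promoter. Of these, 0 were higher and 0 lower at day 7 (limma), also at an unadjusted p under 0.05, with a median of −0.02. Median-of-ratios scaling, edgeR and DESeq2 each called 1 higher, Chchd2, quality-weighted limma called 2, and without day 0 replicate 3 Hif1a was called lower. Hif1a mRNA was at 46.5 ± 9.89 RPKM (SD, n = 3) at day 0, 65.8 ± 2.41 RPKM at day 4 and 41.1 ± 4.95 RPKM at day 7, and all its day 4 libraries were above all others. Epas1 was at or below 0.310 RPKM on average at each stage. HIF activity is set largely by protein stability, which these data do not measure.

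Of 7 HIF-induced genes with mitochondrial roles, 6 rose and 0 fell (limma, 0 also at an unadjusted p under 0.05), with a median of 2.22. Over all 12712 genes tested, 12.6% were higher and 18.6% lower. The list was chosen with earlier results of these data known, and a role of HIF in these levels was not tested. Bnip3, a mitophagy receptor, was at 10.8, 9.34 and 7.18 RPKM at day 0, 38.3, 72.9 and 57.9 RPKM at day 4 and 77.1, 76.1 and 54.3 RPKM at day 7, and rose by 2.90 ± 0.17 (SE) in log2 between day 0 and day 7 (limma, adjusted p = 1.18e-19). Higd1a, which binds complex IV, rose by 2.80 ± 0.16, Fam162a by 2.41 ± 0.16, Pdk1, which restrains pyruvate entry to the TCA cycle, by 2.22 ± 0.16, and Mxi1 by 1.60 ± 0.17. Bnip3l rose by 0.53 ± 0.17 (adjusted p = 0.0149), a call lost without day 7 replicate 1. Lonp1, the protease that removes Cox4i1 protein under hypoxia, differed by −0.22 (adjusted p = 0.290) and was called lower only without day 0 replicate 3. The log2 differences of Cox4i2 and Ndufa4l2 on the same log2(CPM + 0.5) scale were 6.05 and 6.00, and that of Cox4i2 was 7.51 in edgeR, since the added 0.5 weighs on its low day 0 level.

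Within day 4, replicate 1 was the lowest and replicate 2 the highest library for Cox4i2, for Ndufa4l2 and for 7 of the 7 HIF-induced genes, an order held by 17.9% of 12857 genes. It was also held by 3 of 8 osteoblast markers, 1 of 6 regulators of Cox4i2 and 0 of the 6 reference subunits. Of the 9 genes described here, 2 held this order (Cox4i2 and Ndufa4l2) and 2 had the opposite order (Ndufa4 and Cox6a1), as had 30.7% of all genes. This order was looked at after the values were seen.

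**Figure D5:**
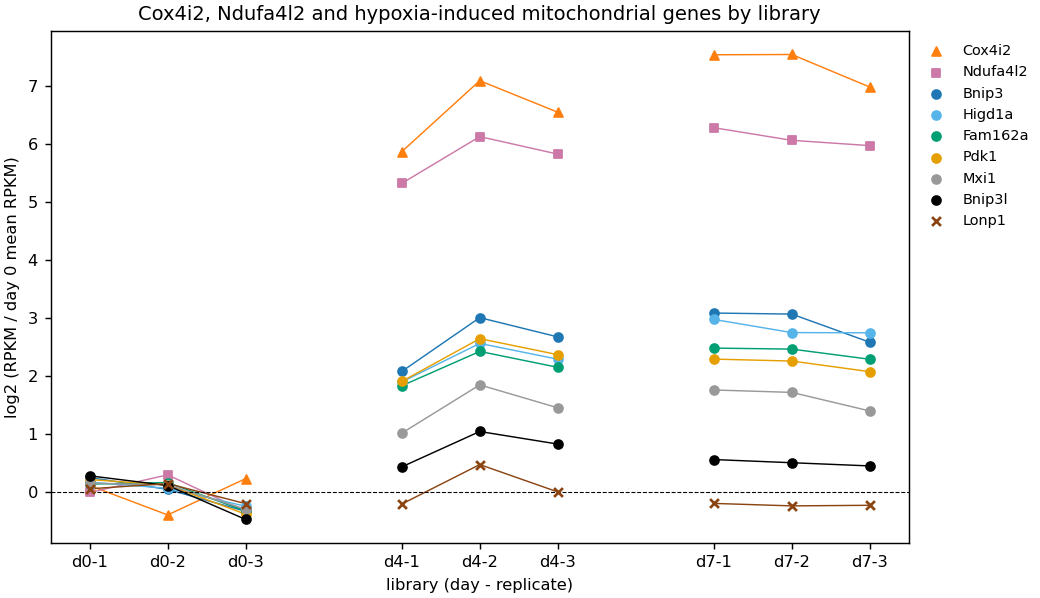
Log2 of RPKM over the day 0 mean for Cox4i2, Ndufa4l2 and 7 HIF-induced genes with mitochondrial roles in each library. Lines only join the libraries of a stage. At day 4 all 9 genes have their lowest point in replicate 1 and their highest in replicate 2, and Lonp1 stays near 0.

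The 5 genes whose profile over the 9 libraries was most like that of Cox4i2 were sought among 10545 genes with a mean of at least 2 RPKM at a stage, by the root mean square difference of centred log2(RPKM + 0.1). They were Ndufa4l2 (0.498), Col22a1 (0.502), Ptprz1 (0.569), Ramp1 (0.602) and Col13a1 (0.682). For Ndufa4l2 they were Col22a1 (0.311), Ptprz1 (0.401), the noncoding RNA Miat (0.451), Cox4i2 (0.498) and Ramp1 (0.564). Cox4i2 and Ndufa4l2 stood in each other's lists, at rank 1 and rank 4. Both were chosen with their large day 0 to day 7 differences known, and such differences weigh heavily in this measure. Nothing is therefore read from these ranks. Col22a1, a collagen gene, was at 0.0636 ± 0.0216 RPKM (SD, n = 3) at day 0, 6.38 ± 1.74 RPKM at day 4 and 11.6 ± 1.96 RPKM at day 7.

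Markers of other cells in which the alternative forms are known were read in the same libraries, where fewer cells of a type and less RNA per cell cannot be told apart. Between day 0 and day 7, 42.3% of the 12712 genes with a mean of at least 1 CPM did not overlap, 16.9% higher and 25.4% lower. That filter was reached by 9 of 12 pericyte and mural markers, 1 of 12 muscle, 1 of 8 brown adipocyte and 5 of 6 macrophage markers. Of 12 markers of pericytes and mural cells, 4 were higher (Cspg4, Cnn1, Myh11 and Kcnj8), 4 lower (Pdgfrb, Rgs4, Rgs5 and Notch3) and 4 overlapping at day 7 against day 0. Their summed level was 125 to 134 RPKM at day 0, 184 to 202 RPKM at day 4 and 158 to 191 RPKM at day 7. The defining markers Higd1b and Vtn had at most 1 read in any day 0 library and 0 reads in the day 7 libraries, and overlapped. Rgs5 went from 0.498 ± 0.0125 RPKM at day 0 to 0.173 ± 0.0649 RPKM at day 7 (SD, n = 3), and Cspg4, the highest of the list at day 7, had 19.3 to 21.3 RPKM at day 0 and 81.6 to 109 RPKM at day 7. Pdgfrb, the highest at day 0, was at 74.2 ± 2.16 RPKM then and at 30.7 ± 1.34 RPKM at day 7. The part of such cells in the Cox4i2 and Ndufa4l2 levels was not tested.

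The 12 markers of skeletal and cardiac muscle summed to 2.54 to 4.28 RPKM at day 0, 6.11 to 10.8 RPKM at day 4 and 4.28 to 7.83 RPKM at day 7, mostly from Acta1. Tnnc2 was at 0 in all 9 libraries, and Myod1, Ckm and Myh6 were at 0 in all day 0 and day 7 libraries. Of the 12, 1 was higher, 1 lower and 10 overlapped between day 0 and day 7, and their part in the Cox6a2 and Cox7a1 levels was not tested. Of 8 brown adipocyte markers, led by Fabp4 at day 0 and by Pparg at day 7, 2 were higher and 2 lower, with sums of 2.20 to 4.61 RPKM at day 0 and 2.35 to 2.73 RPKM at day 7 and with Ucp1 at 0 in all 9 libraries. Macrophage markers, led by Lyz2, were higher for 5 of 6 and summed to 42.0 to 72.3 RPKM at day 0 and 77.3 to 102 RPKM at day 7, and their part was not tested. The 6 endothelial markers summed to at most 0.479 RPKM in any library, with Emcn at 0.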

How the data were processed

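Total RNA from 9 cultures was depleted of ribosomal RNA and sequenced. The authors aligned reads with STAR 2.0.4b to GRCm38 and counted uniquely aligned reads per gene with featureCounts. No strand setting is given in the sources used here. The authors deposited CPM, which scale reads on genes to the library total, and RPKM, which also divide by gene length. Whole reads were recovered from 100% of CPM values (tolerance 0.01 reads). Replicates were taken from the labels.

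The test of day 7 against day 0 used limma 3.58.1 (R 4.3.3, mean-variance trend) on log2(CPM + 0.5) of genes that averaged 1 CPM or more, with Benjamini-Hochberg adjustment and a threshold of 0.05, a scale that understates changes of low genes. With 42.9 prior and 4 residual degrees of freedom, the variance trend over all genes dominates the p-values. Alternatives were other pseudocounts, no filter, median-of-ratios scaling, the RPKM table, edgeR 4.0.16, DESeq2 1.42.0 and voomWithQualityWeights on recovered reads, a replicate block and leaving out each library. The limma step was tested on simulated data. Counts are described with a floor of 3 reads, and floors and intervals cover counting error only. Replicates of a stage differed by more than that, with a chi-square per degree of freedom of 13.0 to 228 over genes.

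The members and gene lists were chosen with earlier results of these data known. Named are the 9 members, their partners, every gene of lists of up to 7 genes, the largest rise and fall in longer lists, leading and zero-read markers, and the 5 genes most like Cox4i2 and Ndufa4l2. Other genes were named after their values were seen. Positions and shared 50-base stretches come from GENCODE M21 (GRCm38), where 24 of 24 identifiers matched.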

Additional observations from a re-analysis of the deposited data

How the results depend on the processing

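The calls rest on 3 libraries a stage, and genes with few reads, such as Cox7a1 and Cox4i2 at day 0, are limited by depth. Over all genes, 1602 were higher and 2369 lower at day 7. The higher count was 2843 with median-of-ratios scaling, 2818 with edgeR, 2581 with DESeq2 and 3148 with quality weights, and the share of calls that were higher went from 40.3% to 52.1% with median-of-ratios scaling. Leaving out single libraries gave 1174 to 1603 higher and 1527 to 4696 lower genes, the most when day 0 replicate 3 and the fewest when day 0 replicate 2 was left out, with 1548 when day 7 replicate 2 was. Day 0 and day 7 libraries with the same number did not deviate together (correlations −0.016, −0.17 and −0.44), and no day 0 library correlated best with its own number, so the numbers were not taken to pair day 0 with day 7 libraries. Day 4 was not part of this check. With the replicate block there were 1463 higher and 1950 lower genes, and it changed 1 list by over 1.5 times, the lower assembly factors (2 to 1).

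Nuclear subunits called higher went from 1 to 5 in edgeR, in DESeq2, with quality weights and after median-of-ratios scaling, and were 0 to 2 when libraries were left out. Assembly factors called higher went from 3 to 1 with no filter, 8 with median-of-ratios scaling, 8 with edgeR, 6 with DESeq2 and 9 with quality weights, and were 1 to 3 without single libraries. Those called lower went from 2 to 1 with no filter and in the RPKM table, and were 1 to 3 without single libraries. Regulators of Cox4i2 called higher went from 0 to 1 in edgeR, in DESeq2 and after median-of-ratios scaling, and to 2 with quality weights, and 0 to 1 were lower without single libraries, as for the HIF-induced genes (0 to 1). Further relatives called higher went from 0 to 1 with no filter, where Cox8b was tested. The cause of these moves was not tested, apart from Cox8b, which the filter removes.

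The log2 ratio of Cox7a1 to Cox7a2 (0.02 at day 7 minus day 0) reversed to −0.025 with 0.1 RPKM added, and ranged from −0.32 to 0.35 without single libraries: leaving out day 0 replicate 2 gave −0.32, day 7 replicate 1 −0.14 and day 7 replicate 2 −0.12. The other pair ratios kept their direction under every alternative run, and so did all 9 levels relative to the median of the other subunits.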
